A study of Mus musculus with 18 samples.

Results

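Heat shock proteins, their co-chaperones and the factor Hsf1, 10 genes in all, were followed across arrays of RAW264.7 cells, a mouse macrophage line, treated with a Hypericum perforatum (St John's wort) fraction. They were Hspa1a, Hspa1b, Hspa8, Hsph1, Hsp90aa1, Dnajb1, Dnaja1, Hspd1, Hspe1 and Hsf1. They were chosen by gene symbol, with earlier results of these data known. Every probe set that the platform annotation pairs with a symbol was taken. Of the 10 symbols, 9 had probe sets, 23 in all, of 45037 probe sets on the array without controls. Hsf1 was not analysed here.

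Cells received 0.1% DMSO (called vehicle), the fraction at 10 ug/mL, or a mixture of amentoflavone at 0.07 uM, quercetin at 0.08 uM, chlorogenic acid at 0.2 uM and pseudohypericin at 0.03 uM. Each was given for 8 h without or with 10 ug/mL lipopolysaccharide (LPS), the bacterial ligand of Toll-like receptor 4. All 6 groups were treated in the dark and then had 30 min of ambient light, and the labels name DMSO for the vehicle alone. Each group had 3 arrays of total RNA from this 1 line, and nothing in the labels says that the 3 were separate cultures. A p-value here therefore reflects only the variation among such arrays, part or all of which may be technical.

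Heat shock proteins keep other proteins folded. HSP70 proteins bind unfolded stretches and release them with ATP; J-domain co-chaperones (the Dnaj genes) deliver clients and speed ATP use, and HSP110 (Hsph1) exchanges the nucleotide. HSP90 matures kinases and receptors that HSP70 hands on. The factor encoded by Hsf1 switches many of these genes on under stress by binding heat shock elements, inverted repeats of the letters GAA, in their promoters. Hspd1 and Hspe1 encode the chaperonin HSP60 and its lid HSP10, which in textbook knowledge work inside mitochondria, so the name cytosolic does not cover them.

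The promoters are shown because Hspa1a and Hspa1b are near-identical copies and because several members have matches to the letters of a heat shock element. Sequences are the 250 bases before a RefSeq transcript start (GRCm38.p6), 5′ to 3′, with GAANNTTC or TTCNNGAA, where N is any base, in capitals. Each of these motifs is its own reverse complement, so 1 search covers both strands, and neighbouring matches may overlap. Hspa1b lies at chr17:34959239-34959488 (minus strand), Hspa1a at chr17:34972157-34972406 (minus strand), Hsph1 at chr5:149636337-149636586 (minus strand) and Dnaja1 at chr4:40722218-40722467 (plus strand). For Hspe1 only the 30 bases around its run of motifs are given, chr1:55088053-55088082 (plus strand).
Hspa1b: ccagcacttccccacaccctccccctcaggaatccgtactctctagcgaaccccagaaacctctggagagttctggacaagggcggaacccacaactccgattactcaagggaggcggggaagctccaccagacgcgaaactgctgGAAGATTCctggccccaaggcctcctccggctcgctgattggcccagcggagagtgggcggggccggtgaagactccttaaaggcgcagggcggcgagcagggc
Hspa1a: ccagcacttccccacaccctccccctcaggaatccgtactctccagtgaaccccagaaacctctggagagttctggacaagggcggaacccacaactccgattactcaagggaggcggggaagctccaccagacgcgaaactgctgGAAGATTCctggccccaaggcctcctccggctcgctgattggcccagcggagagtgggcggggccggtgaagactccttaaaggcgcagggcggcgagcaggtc
Hsph1: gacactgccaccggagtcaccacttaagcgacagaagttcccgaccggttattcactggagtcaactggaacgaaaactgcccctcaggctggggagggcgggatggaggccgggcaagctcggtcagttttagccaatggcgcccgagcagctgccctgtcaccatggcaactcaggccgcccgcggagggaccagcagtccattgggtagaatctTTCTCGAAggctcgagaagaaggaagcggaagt
Dnaja1: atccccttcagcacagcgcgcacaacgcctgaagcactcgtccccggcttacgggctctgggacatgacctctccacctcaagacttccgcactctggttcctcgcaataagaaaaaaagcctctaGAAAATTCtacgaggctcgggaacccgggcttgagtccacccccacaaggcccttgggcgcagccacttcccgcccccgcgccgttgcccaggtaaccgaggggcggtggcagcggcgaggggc
Hspe1: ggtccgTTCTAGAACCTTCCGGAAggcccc

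The windows of Hspa1b and Hspa1a differed at 3 of 250 bases, 98.8% identity, and no other gene of the RefSeq table starts between these 2 neighbours. From Hspa1b to Hspa1a, counted from 1 at the 5′ end of the window, the differences were T44C, C47T and G249T. Both hold 1 GAANNTTC, from base 104 to base 97 before the start, outside all 3 differences. The Dnaja1 window shown holds 1 GAANNTTC, from base 124 to base 117, and Hsph1 holds 1 TTCNNGAA, from base 33 to base 26. Hspd1 and Hspe1 are neighbours on chromosome 1 that are read in opposite directions, and their windows overlap and share a run of 18 bases in which 1 GAANNTTC overlaps a TTCNNGAA on either side. The second Hspd1 window and the 2 other windows of Dnaja1 hold neither motif. Neither motif occurs in the 2 windows of Dnajb1. Of the 32851 windows of all genes, 6.69% hold GAANNTTC, 7.17% hold TTCNNGAA, 12.8% hold either and 1.02% hold both. Windows of 7 members were used, without Hspa8, Hsp90aa1 and Hsf1. A match to these letters is a description and not a shown binding site.

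The deposited values were MAS5 signal intensities, on a linear scale on which array medians lay between 52.1 and 66.8. Arrays of 1 group correlated at 0.967 to 0.978 on the log2 scale. All 8 macrophage markers were measured and lay above the array median on every array. Cd68 lay between 10130 and 13280 and Lyz2 between 17750 and 25820, while the dimmest, Itgam, lay between 338.4 and 1216. Of 18 markers of epithelial, fibroblast, T, B and endothelial cells, 17 had a probe set and 6 passed the filter on low values, and none exceeded 126.7. In these bulk samples fewer cells of a type and less RNA per cell cannot be told apart. Of the members' 23 probe sets, 21 passed the filter (at or above the array median on at least 3 of 18 arrays). The 2 that did not, 1433251_at and 1441827_x_at of Hsp90aa1, lay between 2.94 and 45.6 and reached the median on 0 arrays. The Hspa1a probe set passed on exactly 3 arrays, the fewest that the filter allows.

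Hspa1b, the stress-inducible HSP70, had the widest range among the 9 members. Its brightest probe set, 1452318_a_at, read 889.7, 967 and 1117 on the vehicle arrays and 1041, 1163 and 974 on the mixture arrays. On the fraction arrays it read 66.2, 79.1 and 54.6. All 3 fraction arrays were far below every vehicle and mixture array and close to the array median. With LPS it read 1925, 1881 and 1422 in vehicle cells, 899.9, 1166 and 724 in fraction cells and 1826, 2335 and 1887 in mixture cells. In order of the group means, the levels were 66.6 ± 12.3 (SD, n = 3) with the fraction, 929.8 ± 222.7 with fraction and LPS, 991 ± 116 with vehicle, 1059 ± 95.9 with the mixture, 1743 ± 278 with vehicle and LPS and 2016 ± 278 with mixture and LPS. The arrays of the fraction with LPS, the vehicle and the mixture overlapped, as did those of the vehicle and the mixture with LPS.

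**Figure D1:**
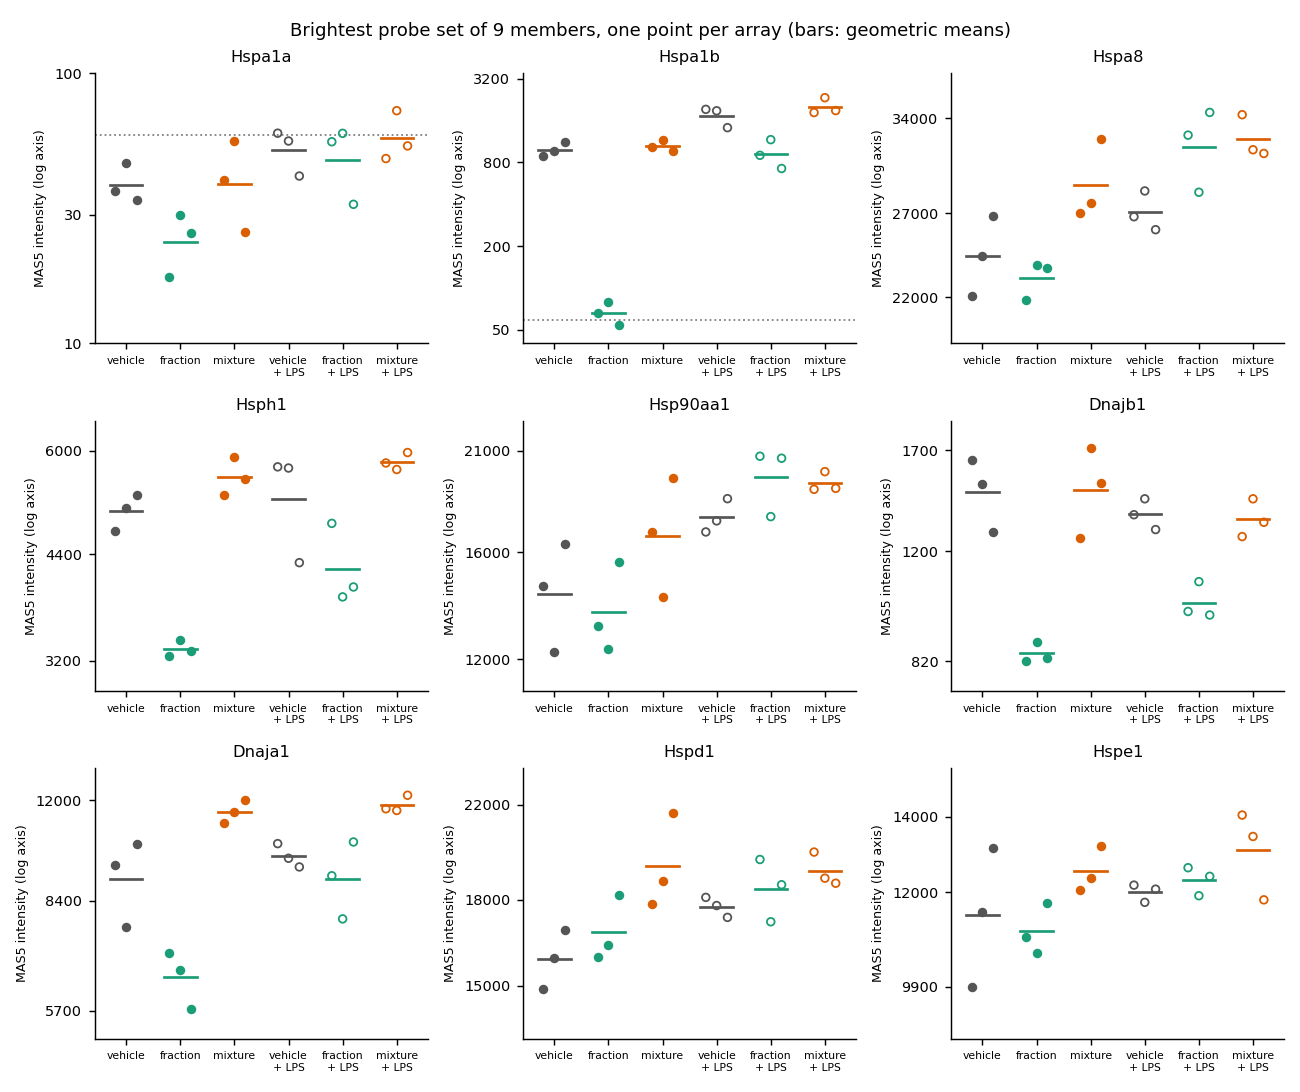
MAS5 intensity of the brightest probe set of each of 9 members (log axes whose ranges differ), with 1 point per array (filled without LPS, open with LPS) and bars at geometric means; the dotted line in the Hspa1a and Hspa1b panels is the geometric mean of the array medians, 59.2. Hspa1b falls to 54.6 to 79.1 on the fraction arrays, and Hsph1, Dnajb1 and Dnaja1 also have their lowest arrays there.

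The first comparison asked what the fraction does in unstimulated cells. Without LPS, 4 of the 9 members were lower with the fraction than with vehicle and 0 were higher, at an adjusted p under 0.05 in limma's test with Benjamini-Hochberg adjustment over 11547 genes. They were Hspa1b, its co-chaperones Dnajb1 and Dnaja1, and Hsph1. Over all genes tested, 15.3% were lower and 15.9% higher. The median log2 difference was -0.50 over the 9 members and 0.02 over all genes.

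Hspa1b fell by 3.91 on the log2 scale ± 0.17 (SE; adjusted p = 8.3e-12), a 15.0-fold lower intensity, in 3 of 3 arrays. Dnajb1, the J-domain partner of inducible HSP70, read 1642, 1515 and 1282 with vehicle and 822, 877 and 829.7 with the fraction (probe set 1416756_at). The groups did not overlap, and the log2 difference was -0.80 ± 0.11 (adjusted p = 1.7e-05), 1.75-fold lower. Hsph1, the HSP110 exchange factor, read 4715, 5060 and 5262 with vehicle and 3245, 3401 and 3288 with the fraction (1425993_a_at). Its log2 difference was -0.60 ± 0.10 (adjusted p = 0.00015), 1.51-fold lower, again with no overlap. Dnaja1, a J-domain partner of Hspa8, read 9548, 7667 and 10270 with vehicle and 6985, 6574 and 5738 with the fraction (1416288_at). The lowest vehicle array lay above the highest fraction array, and the log2 difference was -0.50 ± 0.10 (adjusted p = 0.00096), 1.42-fold lower.

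The other 5 members did not pass the test at their brightest probe sets in unstimulated cells. Hspa8, the constitutive HSP70, differed by -0.08 (95% confidence interval -0.26 to 0.10) at its brightest probe set, and Hsp90aa1, the inducible HSP90, by -0.07 (-0.31 to 0.17). The chaperonin genes Hspd1 and Hspe1 differed by 0.08 (-0.08 to 0.24) and -0.05 (-0.23 to 0.14). For Hspa1a the difference was -0.70 (-1.59 to 0.19), with both groups under the array median, so that no fold is given. The other 3 probe sets of Hspa8 did fall (1431182_at by 1.44, 1420622_a_at by 0.62 and 1420623_x_at by 0.34 on the log2 scale).

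**Figure D2:**
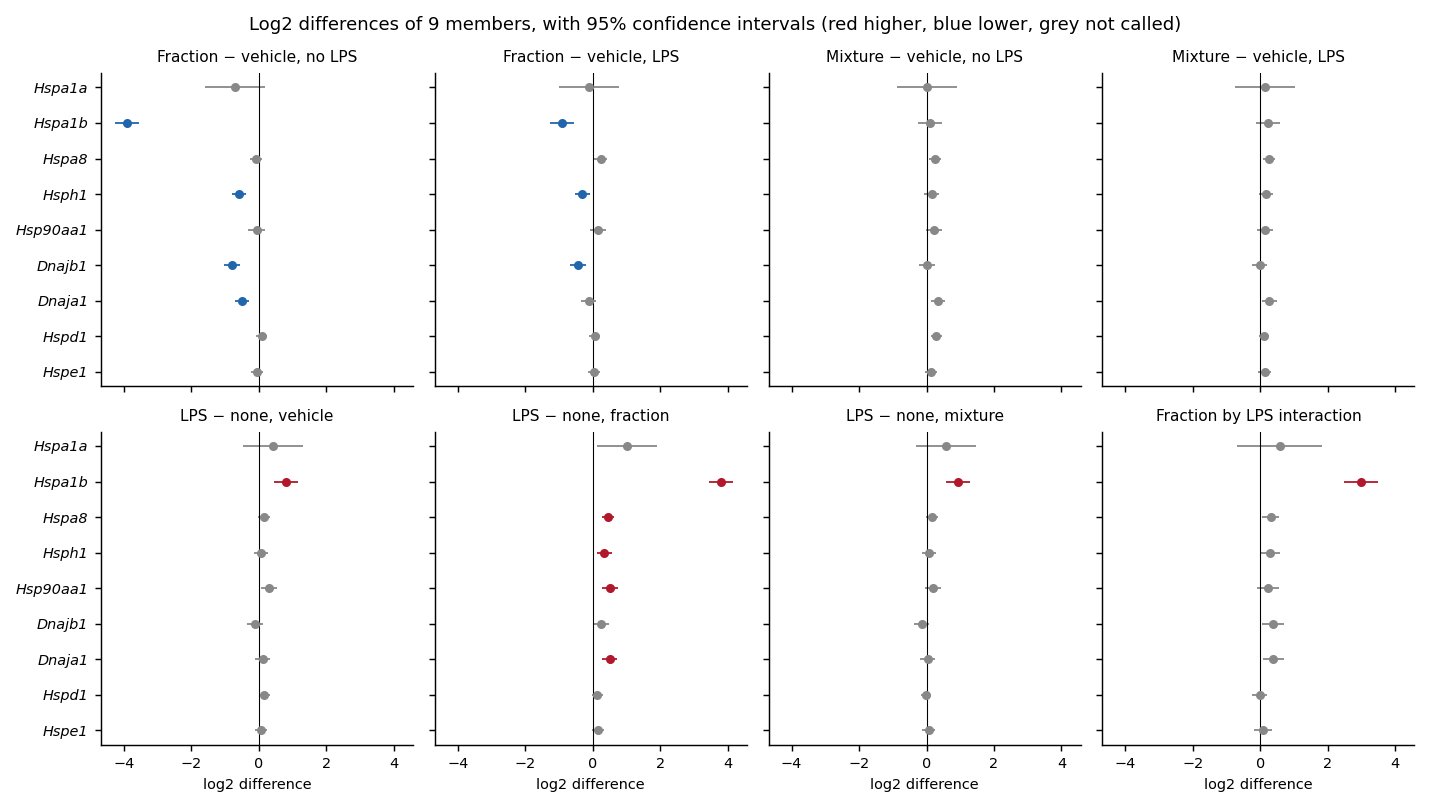
Log2 differences (x axis) of the 9 members in 8 comparisons, with points at the estimate and bars for the 95% confidence interval; red is higher and blue lower at an adjusted p under 0.05, grey not past it. Hspa1b stands at -3.91 for the fraction without LPS, at -0.92 with LPS, and at 2.98 in the interaction, and no member is coloured for the mixture.

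With LPS in both groups, 3 of 9 members were lower with the fraction and 0 higher, against 12.7% lower and 11.1% higher over all genes; the median was -0.12 over the members and -0.02 over all genes. Hspa1b was 1.89-fold lower, a log2 difference of -0.92 ± 0.17 (adjusted p = 0.00053). Its highest fraction array, 1166, lay below the lowest vehicle array, 1422. Dnajb1 read 1361, 1438 and 1293 with vehicle and 974, 1080 and 962 with the fraction, with no overlap, a log2 difference of -0.44 ± 0.11 (adjusted p = 0.0061). The call on Dnajb1 was lost with the mean of its 2 probe sets (-0.23, adjusted p = 0.079) and with every array centred on the median of all its probe sets (adjusted p = 0.052).

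Hsph1 with LPS read 5721, 5701 and 4292 in vehicle cells and 4829, 3873 and 3990 in fraction cells. These groups overlapped, and the log2 difference of -0.30 ± 0.10 (adjusted p = 0.034) was past the threshold in 21 of 30 alternatives. It was lost without vehicle and LPS array 1 (-0.23, adjusted p = 0.14) or 2 (-0.24, 0.15), and without fraction and LPS array 2 (-0.24, 0.14) or 3 (-0.26, 0.13). The other Hsph1 probe set, 1423566_a_at, gave -0.51 ± 0.08 (adjusted p = 0.00019 over all probe sets). Dnaja1 did not pass at this LPS state, with a difference of -0.12 (95% confidence interval -0.33 to 0.10). Hspa8 differed by 0.23 (0.05 to 0.41, adjusted p = 0.059), and 6 of 30 alternatives put it past the threshold, among them those without vehicle array 1, vehicle array 3, mixture array 3 or fraction and LPS array 2 (adjusted p of 0.045, 0.05, 0.04 and 0.018). Hspd1, Hspe1 and Hsp90aa1 differed by 0.06, 0.04 and 0.16 and did not pass.

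LPS itself was compared within each treatment. In vehicle cells 1 of 9 members rose and 0 fell, against 10.1% of all genes higher and 21.8% lower; the medians were 0.15 and -0.08. The count takes each gene's brightest probe set. That member was Hspa1b, 1.75-fold higher with a log2 difference of 0.81 ± 0.17 (adjusted p = 0.0011) and no overlap between arrays at its brightest probe set. The dimmer Hspa1b probe sets were also higher in the fit of all probe sets, but their arrays overlapped. They differed by 0.82 (1427126_at, adjusted p = 0.038) and 0.95 (1427127_x_at, adjusted p = 0.032). Hsp90aa1 read 14610, 12240 and 16340 without and 16890, 17400 and 18470 with LPS at its brightest probe set, 1438902_a_at. All 3 LPS arrays lay above all 3 others, but the difference of 0.30 ± 0.11 did not pass (adjusted p = 0.052). It was past the threshold in 9 of 30 alternatives, 5 of which left out 1 array: mixture array 2 or 3, fraction array 3, fraction and LPS array 2, or vehicle array 3 (0.40, adjusted p = 0.019). The other 2 bright Hsp90aa1 probe sets differed by 0.27 (1426645_at, adjusted p = 0.026) and 0.32 (1437497_a_at, adjusted p = 0.04) in the fit of all probe sets. Hspa8 did not pass at its brightest probe set (0.15, adjusted p = 0.19), but rose at 1420622_a_at by 0.50 (adjusted p = 0.012), at 1431182_at by 0.63 (adjusted p = 7.1e-05) and with the mean of its 4 probe sets by 0.37 (adjusted p = 0.0015). Dnajb1 did not pass at its brightest probe set (-0.11, adjusted p = 0.48). Its dimmer probe set, 1416755_at, was lower with LPS, with mean log2 intensities of 10.235 without and 9.949 with LPS. The arrays there did not overlap, at 1164 to 1253 without and 958.5 to 1023 with LPS.

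In mixture cells too, 1 of 9 members rose with LPS and 0 fell, against 8.32% higher and 16.3% lower over all genes; the medians were 0.07 and -0.07. Hspa1b was 1.90-fold higher there, a log2 difference of 0.92 ± 0.17 (adjusted p = 0.00042). The 2 dimmer Hspa1b probe sets differed by 0.67 (1427126_at, adjusted p = 0.11) and 0.81 (1427127_x_at, adjusted p = 0.079) and did not pass. None of the other 8 members passed at their brightest probe sets. Hspa1a lay under the array median on average in both groups, and the rest differed by -0.15 to 0.20. Hspa8 rose at 1431182_at by 0.69 (adjusted p = 3.8e-05) and with the mean of its probe sets by 0.26 (adjusted p = 0.023), and Hsp90aa1 rose at 1426645_at by 0.27 (adjusted p = 0.03).

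In fraction cells 5 of 9 members rose with LPS and 0 fell, against 11.5% higher and 25.8% lower over all genes. The median difference was 0.46 over the members and -0.11 over all genes. Hspa1b rose 13.9-fold, by 3.79 ± 0.17 on the log2 scale (adjusted p = 3.6e-12), from 54.6 to 79.1 up to 724 to 1166. Hsp90aa1 read 13130, 12320 and 15580 without and 20700, 17600 and 20590 with LPS, a difference of 0.52 ± 0.11 (adjusted p = 0.0012). Dnaja1 read 9184, 7885 and 10350 with LPS, all above its 3 fraction arrays without LPS, a difference of 0.50 ± 0.10 (adjusted p = 0.00075). Hspa8 rose by 0.46 ± 0.09 (adjusted p = 3e-04) and Hsph1 by 0.35 ± 0.10 (adjusted p = 0.01). The call on Hsph1 was lost without fraction and LPS array 1 (0.25, adjusted p = 0.076). Dnajb1 (0.25, adjusted p = 0.079), Hspd1 (0.13) and Hspe1 (0.15) did not pass. Hspa1a lay under the array median on average in both groups, so nothing is read from its LPS comparisons.

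The interaction asks whether the fraction's effect differed between the LPS states. Only Hspa1b of the 9 members passed, with an interaction of 2.98 ± 0.24 on the log2 scale (adjusted p = 1.5e-06), against 0.892% of all genes with a higher and 1.25% with a lower interaction. Its 30 alternatives gave 2.48 to 3.15. The difference between fraction and vehicle cells was 15.0-fold without LPS, where the fraction arrays lay about the array median and a lower level could not be read, and 1.89-fold with LPS. Dnaja1 (0.39 ± 0.15, adjusted p = 0.22), Dnajb1 (0.36 ± 0.16, adjusted p = 0.3) and Hsph1 (0.29 ± 0.14, adjusted p = 0.38) had interactions of the same sign that did not pass, so that a different effect of the fraction at the 2 LPS states was not shown for them. Hspa8 did not pass at its brightest probe set either (0.31 ± 0.12, adjusted p = 0.25). It was past the threshold with quantile normalization (0.31, adjusted p = 0.012) and with the mean of its probe sets (0.81, adjusted p = 0.00084). The interaction term and the comparisons above share arrays, since the vehicle and fraction groups without LPS serve in both the LPS and the fraction comparisons.

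The gene pair Hspa1a and Hspa1b was read by 4 probe sets. The other 2 of Hspa1b, 1427126_at and 1427127_x_at, were called lower with the fraction at both LPS states. Without LPS, 1427126_at was at least 8.55-fold lower with the fraction, counted against the array median because the fraction arrays (47.5, 62.2 and 26.6) lay under it on average, and 1427127_x_at was 12.0-fold lower (80.1, 72.6 and 39.8). Their adjusted p over all probe sets were 2.1e-08 and 7.4e-08. With LPS they were 2.28-fold and 2.21-fold lower (adjusted p = 0.0052 and 0.014). At 1427127_x_at the arrays with LPS overlapped, with the highest fraction array at 828.2 and the lowest vehicle array at 813.9. The Hspa1a probe set, 1452388_at, read 36.6, 46.5 and 33.9 with vehicle, 17.6, 29.9 and 25.6 with the fraction, and at most 72.7 on any array. Its log2 values correlated with those of Hspa1b at r = 0.78 over the 18 arrays, and at 0.64 after each group's mean was taken out; the points share arrays and groups. Probes designed for one copy can bind transcripts of the other, and the share of each copy in these signals was not tested.

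**Figure D3:**
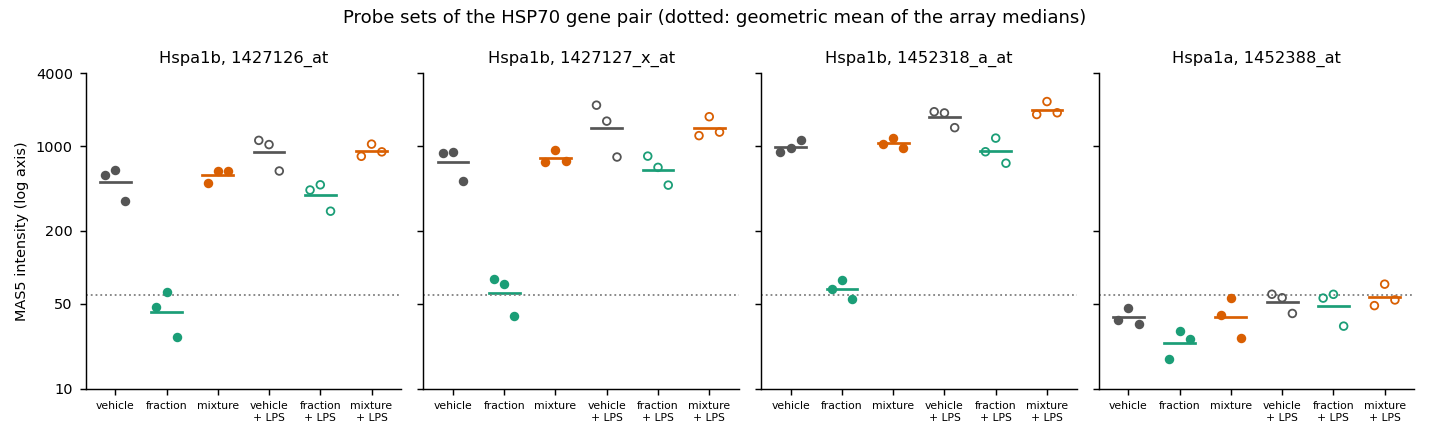
MAS5 intensity (log axis shared by the panels) of the 3 probe sets of Hspa1b and the 1 of Hspa1a, with 1 point per array, bars at geometric means and the geometric mean of the array medians (59.2) as a dotted line. All 3 Hspa1b probe sets have their lowest arrays with the fraction alone, around the dotted line, while Hspa1a stays at or under 72.7 in all 6 groups.

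Hspa8 had 4 probe sets that did not behave alike. The brightest, 1455789_x_at, read 22050, 24320 and 26790 with vehicle and 21850, 23810 and 23600 with the fraction, near the top of the scale, whose highest value on any array was 41310. The dimmest, 1431182_at, read 961, 974 and 954 with vehicle and 388, 347 and 329 with the fraction. It fell by 1.44 on the log2 scale ± 0.10 (adjusted p = 2.3e-09 over all probe sets), 2.72-fold lower. With LPS the same probe set read 1437, 1560 and 1473 in vehicle cells and 2290, 1856 and 1899 in fraction cells. There it was higher with the fraction by 0.43 ± 0.10 (adjusted p = 0.0036), and its interaction was 1.88 ± 0.14 (adjusted p = 5.6e-07). Probe sets 1420622_a_at and 1420623_x_at were lower without LPS by -0.62 ± 0.14 (adjusted p = 0.0024) and -0.34 ± 0.10 (adjusted p = 0.022), and with LPS differed by -0.01 and 0.12 and did not pass. All 4 were higher with LPS than without in fraction cells, by 0.46 to 2.50. With the mean of the 4 standing for the gene, Hspa8 fell without LPS by 0.62 (adjusted p = 1.1e-05) and had an interaction of 0.81 (adjusted p = 0.00084). Which transcripts each probe set reads, and a ceiling of the bright signals, were not tested.

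**Figure D4:**
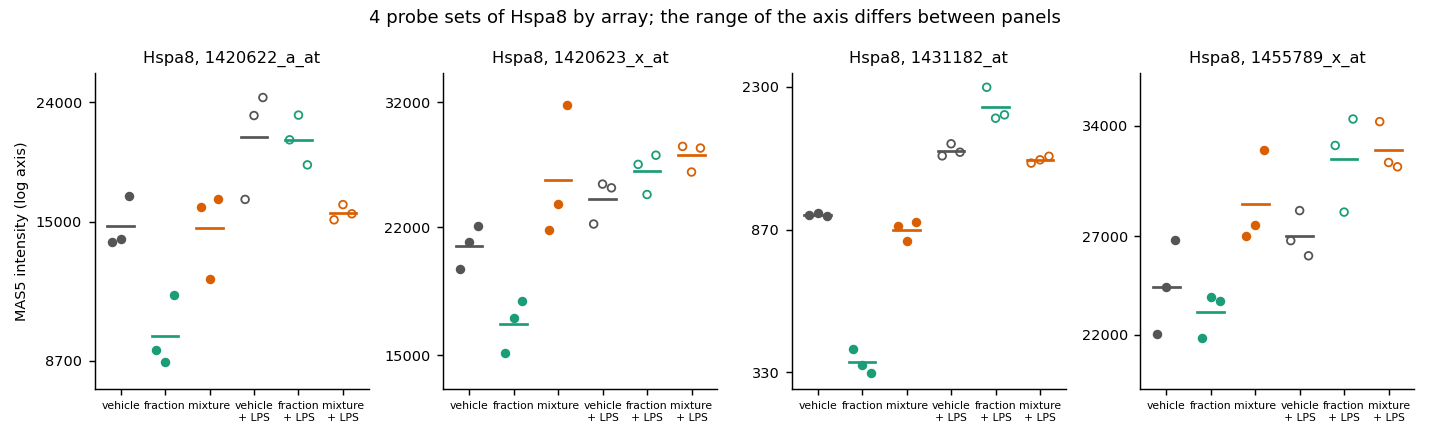
MAS5 intensity (log axes whose ranges differ) of the 4 probe sets of Hspa8, with 1 point per array and bars at geometric means. Probe set 1431182_at runs from 329 to 388 with the fraction alone to 1856 to 2290 with fraction and LPS, while 1455789_x_at stays between 21850 and 34480.

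Among the J-domain genes, both Dnajb1 probe sets fell with the fraction without LPS, 1416755_at by 0.48 ± 0.10 (adjusted p = 0.0022). With LPS that second probe set read 985, 1023 and 958.5 in vehicle cells and 949, 1045 and 933 in fraction cells, a difference of -0.02 that did not pass. Dnaja1 was called without LPS at 1416288_at, and its 2 dimmer probe sets, 1459835_s_at and 1460179_at, differed by -0.25 and -0.31 and did not pass. With LPS they differed by 0.45 and 0.29 (adjusted p = 0.11 and 0.15). Of the 2 Hspe1 probe sets and the single one of Hspd1, none passed in any of the 11 comparisons.

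The mixture holds 4 compounds at fixed doses, and its comparison with vehicle asked whether these change expression on their own. No member passed, nor did any gene of 11547: 0% were called higher and 0% lower without LPS, with LPS and in the interaction with LPS. At an unadjusted p under 0.05 there were 565, 934 and 412 genes in these 3 tests. Without LPS Hspa1b differed by 0.10 (95% confidence interval -0.26 to 0.45) and Hsph1 by 0.15 (-0.06 to 0.36). At their brightest probe sets Hspa8, Hspd1 and Dnaja1 differed by 0.25 (0.07 to 0.43), 0.28 (0.12 to 0.44) and 0.34 (0.12 to 0.56), intervals above 0 that did not survive adjustment (adjusted p = 0.85, 0.81 and 0.81). Other probe sets had lower mean log2 intensities with the mixture than with vehicle. They were Hspa8 1420622_a_at (13.836 and 13.852) and 1431182_at (9.764 and 9.911), and Dnaja1 1459835_s_at (10.282 and 10.364) and 1460179_at (10.91 and 10.947). Hspa8 1420623_x_at was higher with the mixture (14.631 and 14.346). With LPS Hspa1b differed by 0.21 (-0.14 to 0.57) and Dnajb1 by -0.02 (-0.26 to 0.21). At both LPS states the interval of Hspa1b lay above the difference seen with the fraction (-3.91 without and -0.92 with LPS). These intervals cover only the variation among such arrays, part or all of which may be technical.

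Fraction and mixture were also compared directly; these comparisons use the same fraction arrays as those with vehicle. Without LPS 5 members were lower with the fraction and 0 higher, against 15.4% lower and 17.0% higher over all genes. Hspa1b was 16.0-fold lower (-4.00 ± 0.17, adjusted p = 5.2e-12), Dnaja1 1.80-fold (adjusted p = 4.6e-06), Dnajb1 1.76-fold (adjusted p = 1.3e-05), Hsph1 1.68-fold (adjusted p = 1.4e-05) and Hspa8 1.25-fold (adjusted p = 0.0066). At the brightest probe set of each of these 5 genes the fraction and mixture arrays did not overlap. At the dimmer probe sets of Dnajb1 and Dnaja1 they did overlap. Mean log2 intensities at 1416755_at of Dnajb1 were 9.755 with the fraction and 9.976 with the mixture. For Dnaja1 they were 10.116 and 10.282 at 1459835_s_at, and 10.636 and 10.91 at 1460179_at. The median difference was -0.70 over the members and 0.00 over all genes. Hsp90aa1 (-0.30, adjusted p = 0.053) and Hspd1 (-0.20, adjusted p = 0.051) lay at the edge of the threshold, and Hsp90aa1 was past it in 10 of 30 alternatives, with -0.42 without mixture array 2 and -0.39 without fraction array 3. For Hspd1 it was past without vehicle or mixture array 1, fraction array 3 or fraction and LPS array 2, with -0.20 to -0.26.

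With LPS 4 members were lower with the fraction than with the mixture and 0 higher, against 16.2% lower and 12.0% higher over all genes. Hspa1b was 2.20-fold lower (-1.14 ± 0.17, adjusted p = 5.2e-05), Hsph1 1.38-fold (adjusted p = 0.0017) and Dnajb1 1.33-fold (adjusted p = 0.0077). Dnaja1 was 1.30-fold lower (-0.38 ± 0.10, adjusted p = 0.01) at its brightest probe set, a call that was lost without fraction and LPS array 2 (-0.28, adjusted p = 0.068) and whose sign turned with the mean of its 3 probe sets (0.21, adjusted p = 0.23). Its 2 dimmer probe sets were higher with the fraction, 1459835_s_at by 0.61 ± 0.19 (adjusted p = 0.026) and 1460179_at by 0.41 ± 0.14 (adjusted p = 0.035). The Dnajb1 call was lost with the mean of its 2 probe sets (-0.18, adjusted p = 0.17).

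The rest of the chaperone system was read from 63 further genes in 7 lists, 55 of which were tested. Without LPS 11 of the 55 were higher with the fraction and 9 lower, with a median of 0.03, beside the 15.9% higher and 15.3% lower over all genes. The mitochondrial chaperones held 5 of 8 members higher and 0 lower, with a median of 0.35. They included Lonp1, the matrix protease (1.07 ± 0.09, adjusted p = 2.7e-08), Dnaja3, the mitochondrial J-domain protein (0.92 ± 0.10, adjusted p = 7.1e-07), and Hspa9, the mitochondrial HSP70 (0.44 ± 0.06, adjusted p = 3.4e-05). The chaperonin genes Hspd1 and Hspe1, which were not in this list, differed by 0.08 and -0.05 and did not pass. Of the HSP70 family and its exchange factors, 4 of 11 were lower and 1 higher, and of HSP90 and its co-chaperones 4 of 10 were lower and 1 higher. The J-domain co-chaperone Dnajb4 rose 2.06-fold (1.04 ± 0.10, adjusted p = 1.2e-07), in the opposite direction to Dnajb1 and Dnaja1. The cytosolic chaperonin TRiC had 2 of 8 subunits higher and 0 lower.

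With LPS in both groups, 8 of the 55 were higher with the fraction and 6 lower, beside 11.1% and 12.7% over all genes. Lonp1 (0.91 ± 0.09, adjusted p = 4.8e-07), Hspa9 (0.46 ± 0.06, adjusted p = 4e-05) and Dnajb4 (0.58 ± 0.10, adjusted p = 0.00023) were again higher. Bag3, an exchange factor and autophagy adaptor of HSP70, was 1.64-fold lower (-0.71 ± 0.12, adjusted p = 0.00026). Against the mixture with LPS, Hsbp1, which encodes a binding protein of heat shock factor, was 1.44-fold lower (-0.52 ± 0.09, adjusted p = 0.00018).

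In vehicle cells LPS raised 4 of the 55 and lowered 11, beside 10.1% and 21.8% over all genes. Bag2, an inhibitor of the ubiquitin ligase Stub1, fell by 1.35 on the log2 scale ± 0.14 (adjusted p = 4.3e-07), and it was also lower in fraction cells (-1.53, adjusted p = 6.5e-08) and mixture cells (-1.15, adjusted p = 4.4e-06). Hspa14, an atypical HSP70 (-0.57 ± 0.10, adjusted p = 0.00023), Stub1 (-0.37 ± 0.08, adjusted p = 0.00083) and Fkbp4, an HSP90 immunophilin (-0.35 ± 0.07, adjusted p = 0.0011), fell as well. In fraction cells LPS raised 10 of the 55 and lowered 14, beside 11.5% and 25.8% over all genes. Among them were Stip1, which links HSP70 to HSP90 (0.36 ± 0.07, adjusted p = 4e-04), and Dnaja3 (-0.72 ± 0.10, adjusted p = 8.6e-06). In mixture cells 1 was higher and 8 lower, beside 8.32% and 16.3% over all genes. None of these shares of the 55 was tested against all genes.

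**Figure D5:**
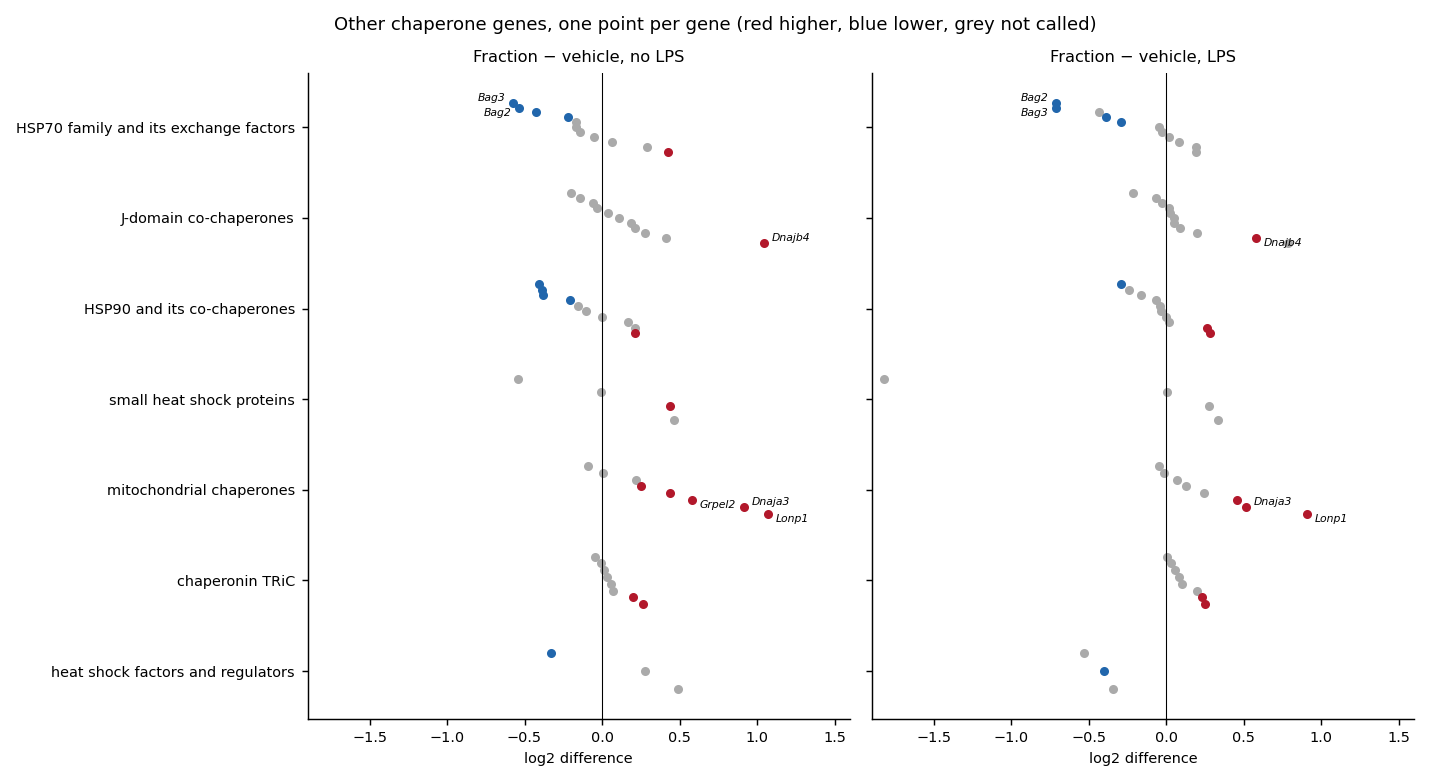
Log2 difference between fraction and vehicle (x axis) of 55 other chaperone genes in 7 lists, without LPS (left panel) and with LPS (right panel), with 1 point per gene; red is higher and blue lower at an adjusted p under 0.05, grey not past it. The mitochondrial chaperones lie mostly to the right, up to Lonp1 at 1.07, while Bag3 lies at -0.57 and -0.71.

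Among themselves the members fell into patterns that the 18 arrays show as correlations of log2 intensity, given as descriptions of arrays that share groups. Hspa1b went with Hsph1 (r = 0.86), Dnaja1 (0.83) and Dnajb1 (0.76). Hspd1 and Hspe1, whose products form 1 chaperonin, went with each other (0.80) and with Hspa8 (0.83 and 0.79). Once each group's mean was taken out, Hspa1b and Hsph1 had r = 0.37 and Hspa1b and Dnaja1 -0.11, while Hspd1 and Hspe1 kept 0.73. Of all other tested genes, those with the highest r to Hspa1b over the 18 arrays were Pomgnt1 (0.98), Tent4a (0.97), Irgm1 (0.97), Eif2ak2 (0.97) and Cdc26 (0.96). For Hsph1 they were Dynll1 (0.94), Igsf6 (0.93), Srsf4 (0.92), Cnih4 (0.92) and Emp3 (0.92). Irgm1, for example, had mean log2 intensities of 11.98 with vehicle, 9.67 with the fraction and 11.86 with fraction and LPS.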

How the data were processed

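The values deposited by the authors are linear intensities of 45101 probe sets on 18 arrays, made with MAS5 per the submitters' processing notes, with the version not given in the sources used here. The 2% trimmed mean was 500.0 on all arrays. Detection calls were not used here, and the number of arrays limits the precision.

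The 64 control probe sets were left out. Signals below a floor of 1, 0.824% of them, were raised to it before log2 was taken. Probe sets at or above the array median on at least 3 of 18 arrays were kept (25612). The brightest one with 1 gene symbol stood for each of 11547 genes. Of 34945 probe sets with 1 symbol, 34741 were matched to RefSeq. Another 932 had several symbols and 9160 none. A model with 6 group means was fitted to all arrays with limma 3.58.1 (R 4.3.3), using eBayes with a trend on intensity, with 11 two-sided comparisons, Benjamini-Hochberg adjustment over all genes and a threshold of 0.05. Tests of single probe sets came from the same model over all kept probe sets. A fold against a group below the array median was computed against that median. The script was tested on simulated data.

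The members and gene lists were chosen with earlier results of these data known. All 10 members were to be named; of other chaperones, up to 4 per comparison with the smallest p and no overlap between groups; and the 5 genes most correlated with Hspa1b and Hsph1. Bag3 without LPS stands beside its value with LPS, outside this rule. Promoters and gene neighbours came from RefSeq tables (GRCm38.p6). The replicate numbers were checked for pairing after group means were taken out. Same-numbered arrays of different groups correlated at 0.026 to 0.17, over 0.1 in 7 of 27 pairs. Differently numbered arrays correlated at -0.133 to 0.052, over 0.1 in 0 of 54 pairs. Same-numbered arrays were thus on the whole slightly more alike. The labels do not say what a number shares, and the main model took no pairing. Alternatives were other normalizations, filters, a pseudocount of 32, mean probe sets, all probe sets, no trend, fewer arrays, a replicate block and each array left out.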

Additional observations from a re-analysis of the deposited data

Results flagged for a closer look

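For Hspa1b the effect of the fraction differed between the LPS states by the test of the difference itself: the interaction was 2.98 on the log2 scale ± 0.24 (limma, adjusted p = 1.5e-06). At the brightest probe set of Hspa1b the fraction arrays lay below the vehicle arrays in 3 of 3 cases at both states, by 15.0-fold without and 1.89-fold with LPS. The other 2 probe sets of Hspa1b gave interactions of 2.37 (1427126_at, adjusted p = 0.0054) and 2.44 (1427127_x_at, adjusted p = 0.0091). Its level with the fraction alone lay at the array median, which limits how far a lower value could be read.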

How the results depend on the processing

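Of 2959 alternative values of the members' 99 results, 2891 kept their side of the threshold, and also their direction where they were past it. Another 17 were no longer past it and 50 were newly past it. A reversal was counted only where the result or its alternative was past the threshold. By that rule 1 was reversed: Dnaja1 for fraction against mixture with LPS, at 0.212 with the mean of its probe sets. Results not past the threshold could change sign and still count as kept. Dnaja1 for fraction against vehicle with LPS, for example, ran from -0.209 to 0.209 over its 30 alternatives. The calls of Hspa1b held in every alternative run, each of which took its brightest probe set or the mean of its probe sets. Its dimmer probe sets on their own did not pass for LPS in mixture cells. Counts of called members moved by over 1.5 times as follows. With median centring, LPS called 4 members in vehicle cells (1 in the report) and 9 in fraction cells (5), and the fraction called 8 against the mixture without LPS (5). That centring, on the kept probe sets, moved the median of all genes by 0.12 and 0.16 for LPS in vehicle and fraction cells. Centring on all probe sets, which was chosen after seeing the data, moved it by -0.13 for LPS in vehicle cells and left 1 member called for the fraction against vehicle with LPS (3). With the mean of a gene's probe sets the counts were 3 for LPS in vehicle cells, 2 for LPS in mixture cells (1), 2 for fraction against mixture with LPS (4) and 2 for the interaction with the fraction (1). Quantile normalization gave 2 for LPS in mixture cells and 2 for that interaction, and the 75th percentile filter gave 2 for LPS in vehicle cells. With each array left out in turn, LPS called 1 to 2 members in vehicle cells and 4 to 6 in fraction cells, and the fraction called 2 to 4 against vehicle with LPS and 5 to 7 against the mixture without LPS. The replicate block, whose meaning the labels do not give, gave 2 members for LPS in vehicle cells and changed no other count by over 1.5 times. The added member was Hsp90aa1 (adjusted p = 0.0086 in limma's test with the block). Depth here is signal over background, which limits Hspa1a: its interval for the fraction without LPS runs from -1.59 to 0.19.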
